A study of Mus musculus with 78 samples.

Results

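The CC chemokines and receptors described here are 9 genes, chosen by symbol: the ligand genes Ccl2, Ccl3, Ccl4, Ccl5, Ccl6, Ccl7 and Ccl8 and the receptor genes Ccr1 and Ccr2. They are 9 of the 17097 mouse genes with a probe set annotated to their symbol alone. A gene was represented by its probe set with the highest mean over all 78 arrays, a choice that arose only for Ccr1 (2 probe sets) and Ccr2 (4 probe sets). Endothelium-enriched RNA had been flushed from the left common carotid artery (LCA), which was partially ligated in every animal, and from the unligated right common carotid artery (RCA) of the same animal. The 39 mice received atorvastatin, a cholesterol-lowering statin, at 10 mg/kg/day by daily oral administration starting 2 days before surgery, or vehicle in the same way. Arteries were taken from separate animals at 12 h, 24 h, 48 h and 2 weeks, with 5 animals in each treatment and time except atorvastatin at 48 h, which had 4. The 16 groups are therefore LCA and RCA under atorvastatin and LCA and RCA under vehicle at each time. All animals were operated on and no intact animal was included, so the RCA is the control within each operated animal. Strain, sex and age are not stated in the labels used here.

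Chemokines are small secreted proteins that bind to the vessel wall and direct leukocytes to it through G protein-coupled receptors on the leukocyte surface. CCR2 is the main receptor by which classical monocytes leave the bone marrow and enter tissue, and CCL2 and CCL7 are its ligands. CCR1 is carried by monocytes and neutrophils and binds CCL3, CCL5 and, in the mouse, CCL6. In arteries, disturbed flow is known to favour the adhesion and entry of monocytes. The members are neighbours in the mouse genome: Ccl2, Ccl7 and Ccl8 lie in one group on chromosome 11 together with Ccl11 and Ccl12, Ccl5, Ccl6, Ccl3 and Ccl4 lie in another on the same chromosome together with Ccl9, and Ccr1 and Ccr2 lie in one group on chromosome 9.

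The promoter sequences of the 4 members that were higher in the LCA at 48 h under both treatments and for which RefSeq's promoter table (GRCm38.p6) holds an entry are shown here, since these genes carry most of the 48 h result. Each is a window around the start site, most of it upstream, written 5′ to 3′ on the gene's own strand. They lie at chr9:123968643-123968942 on the minus strand (Ccr1), chr9:124101933-124102232 on the plus strand (Ccr2), chr11:83649329-83649628 on the minus strand (Ccl3) and chr11:83593038-83593337 on the minus strand (Ccl6). Capitals mark matches on either strand to the letters GAGGAA, a form of the site of PU.1, a transcription factor of myeloid cells. The letters of an AP-1 site (TGANTCA) were searched on both strands as well and matched in none of the 4.
Ccr1: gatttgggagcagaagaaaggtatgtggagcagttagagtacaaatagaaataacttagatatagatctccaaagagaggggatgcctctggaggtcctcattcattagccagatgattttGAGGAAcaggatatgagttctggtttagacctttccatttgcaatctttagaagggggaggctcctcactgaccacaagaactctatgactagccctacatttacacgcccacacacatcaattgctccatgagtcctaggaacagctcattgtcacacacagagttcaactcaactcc
Ccr2: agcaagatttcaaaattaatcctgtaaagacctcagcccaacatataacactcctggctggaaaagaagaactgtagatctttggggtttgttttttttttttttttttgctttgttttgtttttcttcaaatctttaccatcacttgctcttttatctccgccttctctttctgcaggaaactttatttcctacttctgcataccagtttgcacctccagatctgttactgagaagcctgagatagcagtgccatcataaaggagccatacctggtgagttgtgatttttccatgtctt
Ccl3: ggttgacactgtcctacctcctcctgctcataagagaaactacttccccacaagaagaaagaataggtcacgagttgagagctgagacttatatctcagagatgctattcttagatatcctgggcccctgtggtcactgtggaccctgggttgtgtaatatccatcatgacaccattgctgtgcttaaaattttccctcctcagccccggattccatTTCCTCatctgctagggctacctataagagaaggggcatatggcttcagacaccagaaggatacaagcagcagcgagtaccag
Ccl6: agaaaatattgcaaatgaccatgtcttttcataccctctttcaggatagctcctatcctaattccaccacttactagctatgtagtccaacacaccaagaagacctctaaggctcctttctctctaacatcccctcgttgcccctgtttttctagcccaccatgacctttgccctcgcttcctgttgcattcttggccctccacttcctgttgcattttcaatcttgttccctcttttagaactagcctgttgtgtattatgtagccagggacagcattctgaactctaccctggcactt
Ccr1 held 1 GAGGAA match starting at -129 from the start site, Ccl3 held 1 at -33 on the other strand, and Ccr2 and Ccl6 held none. Of the 32851 promoters of the same length in the table, 28.3% held GAGGAA and 7.81% held TGANTCA, so these matches are a description of the letters and not of binding.

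All values are log2 expression after RMA (robust multi-array averaging, which sets the arrays to a common distribution), and a difference of 1 is a 2-fold change. Array medians lay between 4.59 and 4.77. The mean level over 8 endothelial markers was between 8.98 and 10.24 on every array. Yet 5 of the 8 were lower and 2 higher in the LCA at 48 h under atorvastatin (median -0.74) and 4 lower and 2 higher under vehicle (median -0.72), and at 2 weeks 3 were lower and 2 higher under each (medians -0.47 and -0.41). Among all tested genes, 12.3% to 15.4% were lower and 14.5% to 20.8% higher in these groups. The part of the endothelial shift in the members' results was not tested. By contrast, the mean over 3 pan-leukocyte markers reached 9.55 in the LCA and 7.86 in the RCA. The 7.86 came from vehicle animal 4 at 48 h, where the other vehicle animals held 3.87 to 4.91 in the RCA. The next highest RCA value was 6.40, in atorvastatin animal 8 at 2 weeks. Levels of different probe sets cannot be set against each other, and each member is followed across arteries only. A gene entered the tests when it was above its array's median on at least 4 arrays. Ccl6 was above it on 76 of 78 arrays, Ccl8 on 42, Ccr2 on 29, Ccl2 on 21, Ccl5 on 12, Ccl3 on 6, Ccr1 on 5, Ccl7 on 3 and Ccl4 on 0. In the RCA alone Ccl3, Ccl4, Ccl7 and Ccr1 were above it on 0 of 39 arrays, Ccl5 on 1, Ccr2 on 3 and Ccl2 on 7, so their differences start from low signals, which RMA compresses, and no fold is given for them. Hence 7 of the 9 members were tested among 11344 genes and Ccl4 and Ccl7 were not. Ccr1 passed through LCA arrays at 48 h only, and Ccl3 through LCA arrays at 48 h and 2 weeks only. Ccl5 passed through LCA arrays at those times and 1 RCA array. Counts and medians over the 7 members are therefore given as a description and not as support. The same holds for the calls of Ccr1, Ccl3 and Ccl5 at the times whose LCA arrays let them in. It holds also for their changes over time that include those times. One vehicle animal at 48 h, animal 4, stood apart in both arteries. Its levels in the LCA and RCA were 9.23 and 10.30 for Cxcl9 and 9.60 and 10.51 for Cxcl10, 2 interferon-induced chemokine genes, while the other 4 animals lay between 2.76 and 5.62 for these genes in either artery. The calls and contrasts that this animal moved most are given with and without it.

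**Figure D1:**
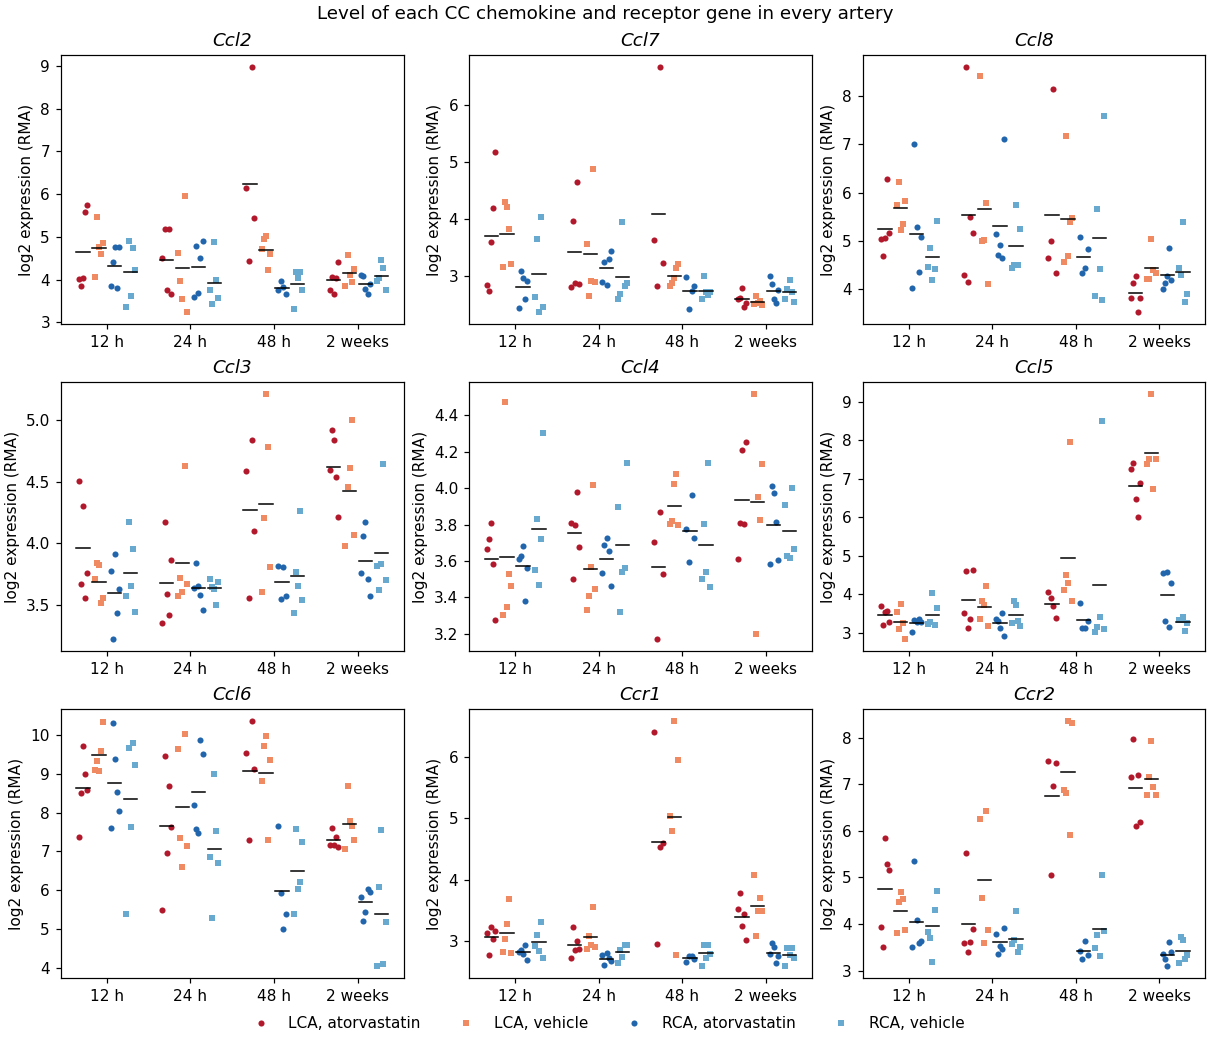
Log2 expression (RMA, vertical axis, scale differs between panels) of the 9 members by time after ligation (horizontal axis). Each point is 1 artery of 1 animal, LCA left of RCA and atorvastatin left of vehicle within each artery, and short lines are group means. Ccr2 in the LCA stands at 5.05 to 8.35 at 48 h and 2 weeks, Ccr1 reaches 6.58 in the LCA at 48 h, and Ccl5 in the LCA stands at 6.01 to 9.20 at 2 weeks.

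At 12 h and 24 h none of the 7 tested members differed between LCA and RCA. At 48 h Ccr1, Ccr2, Ccl6 and Ccl3 were higher in the LCA under both treatments, together with Ccl2 under atorvastatin and Ccl5 under vehicle. At 2 weeks Ccr2, Ccl5 and Ccl3 were higher under both treatments and Ccl6 under vehicle. No tested member was lower in the LCA at any time. Differences were tested as LCA minus RCA within each animal with limma over all 39 animals, and a call means an adjusted p under 0.05 (Benjamini-Hochberg, all 11344 genes). Where a gene is said to rise or fall by such a difference, it was higher or lower in the LCA than in the RCA. In this bulk RNA, fewer cells of a type and less RNA per cell cannot be told apart.

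At 12 h, 0 of 7 members were higher under atorvastatin, where 0.758% of all tested genes were, and 0 of 7 under vehicle, where 1.31% were. At 24 h the counts were again 0 of 7 under atorvastatin (7.29% of all tested genes higher) and 0 of 7 under vehicle (7.19%). At an unadjusted p under 0.05, 1 member passed at 12 h under atorvastatin (11.5% of all tested genes did) and 0 under vehicle (13.2%). At 24 h 1 passed under atorvastatin (26.3%) and 1 under vehicle (27.8%), so these counts are near or below the background. At 48 h 5 of 7 were higher under atorvastatin, against 16.6% of all tested genes, and 5 of 7 under vehicle, against 20.8%. At 2 weeks 3 of 7 were higher under atorvastatin, against 14.5%, and 4 of 7 under vehicle, against 15.5%. Among all tested genes, 15.2% were lower in the LCA at 48 h under atorvastatin, 15.4% at 48 h under vehicle, 15.4% at 2 weeks under atorvastatin and 12.3% at 2 weeks under vehicle, and 0 of 7 members were in each. The median difference of the 7 members was 1.90 at 48 h under atorvastatin and 0.80 under vehicle, beside -0.01 and 0.01 for all tested genes. At 2 weeks it was 0.77 under atorvastatin and 0.79 under vehicle, beside -0.03 and -0.01. The 1.90 and 0.79 were the values of Ccr1 and the 0.77 that of Ccl3, which both passed the filter through LCA arrays only. Ccl4 and Ccl7, which did not pass, are in none of these medians.

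**Figure D2:**
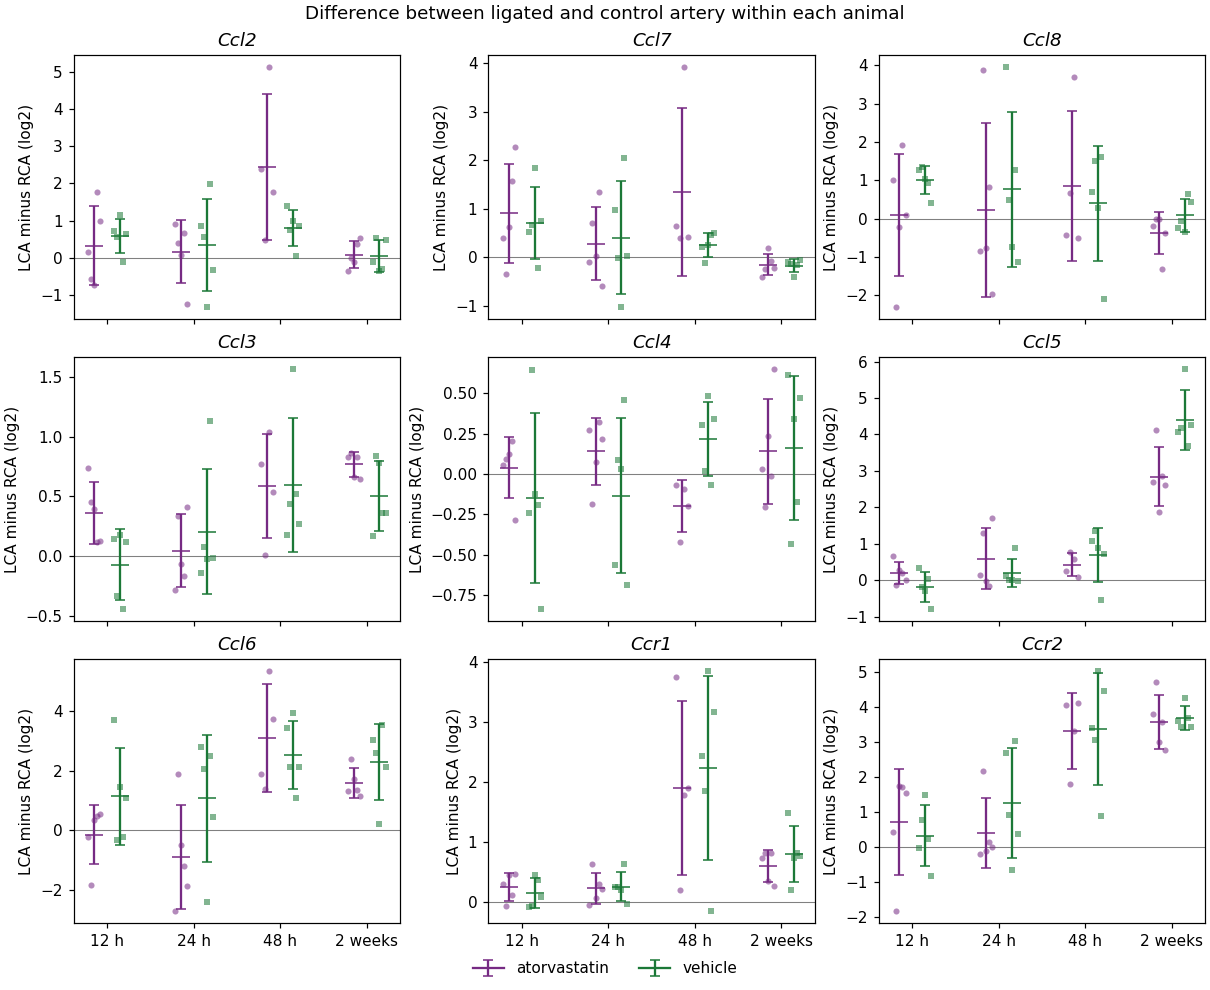
LCA minus RCA within each animal (log2, vertical axis, scale differs between panels) by time after ligation, atorvastatin left of vehicle. Points are animals, and crosses with bars are the group mean and SD. Ccr1 differences peak at 48 h (means 1.90 and 2.22), Ccl5 differences stand at 2.84 and 4.40 at 2 weeks, and those of Ccl8 spread on both sides of 0 at 24 h and 48 h.

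Ccl2 encodes MCP-1, the monocyte attractant that acts through CCR2. In the LCA at 48 h under atorvastatin it stood at 6.14, 4.43, 8.97 and 5.44 in animals 6 to 9, and in the RCA of the same animals at 3.74, 3.97, 3.83 and 3.66. All 4 ligated arteries were above all 4 control arteries, and animal 8 was far above the rest. Under vehicle at 48 h the LCA held 4.71, 4.94, 5.02, 4.22 and 4.61 in animals 1 to 5, and the RCA 3.32, 4.19, 4.04, 4.18 and 3.76. Here too every LCA lay above every RCA, by a smaller margin. Ccl2 rose in the LCA under atorvastatin by 2.44 (SE 0.46, 95% interval 1.52 to 3.37, adjusted p = 0.000142), and by 1.55 without animal 8 (adjusted p = 0.00859). A fit to these 4 animals alone did not call it (adjusted p = 0.102, within a range of 8.89e-05 to 0.102 over 6 alternatives). Under vehicle the difference of 0.80 (SE 0.41) did not pass (adjusted p = 0.122, 0.0303 to 0.153 over 6 alternatives). At 12 h the Ccl2 difference was 0.32 under atorvastatin and 0.58 under vehicle, at 24 h 0.16 and 0.34, and at 2 weeks 0.08 and 0.05, and none of these passed.

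Ccl7 encodes MCP-3, another CCR2 ligand, and it was below the array median on 75 of 78 arrays. Its 3 exceptions were LCA arrays: 5.18 in atorvastatin animal 10 at 12 h, 4.88 in vehicle animal 4 at 24 h and 6.66 in atorvastatin animal 8 at 48 h. The last of these is the animal with the highest Ccl2. At 48 h under atorvastatin Ccl7 held 3.63, 2.84, 6.66 and 3.24 in the LCA and 2.99, 2.43, 2.74 and 2.83 in the RCA. In a fit of all 17097 genes without the filter, the difference was 1.35 (SE 0.42, adjusted p = 0.0187). It rested on animal 8, without which it was 0.49 and not called (adjusted p = 0.462, against 0.00898 to 0.0286 with another animal left out). The unfiltered difference was 0.26 at 48 h under vehicle (adjusted p = 0.647). At 12 h the unfiltered difference was 0.91 under atorvastatin (adjusted p = 0.362) and 0.71 under vehicle (adjusted p = 0.465), at 24 h 0.28 and 0.40, neither called, and at 2 weeks every LCA and RCA array lay between 2.46 and 3.004.

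Ccl8 encodes MCP-2, which in the mouse acts through CCR8. Single animals of a group stood far above the others. At 24 h its LCA level was 8.59 in atorvastatin animal 7, against 4.16 to 5.49 in the other 4, and 8.41 in vehicle animal 1, against 4.12 to 5.79. At 48 h it was 8.13 in atorvastatin animal 8, against 4.35, 4.65 and 5.0 in the other 3. High values also occurred in the RCA, at 7.12 in atorvastatin animal 10 at 24 h and 7.58 in vehicle animal 5 at 48 h. The ranges of LCA and RCA overlapped in all 8 animal groups. The mean difference was at most 1.01, at 12 h under vehicle (SE 0.64, unadjusted p = 0.123, adjusted p = 0.546), where the LCA was higher in 5 of 5 animals. Over 7 alternatives that value ran from 0.99 to 1.71, the highest with the title code block, and its adjusted p from 0.0524 to 0.585. Ccl8 was called in no group.

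Ccl3 encodes MIP-1alpha, a ligand of CCR1. Its differences were small but repeated. At 48 h the LCA held 4.58, 3.56, 4.84 and 4.10 under atorvastatin and the RCA 3.81, 3.55, 3.80 and 3.57. Under vehicle the LCA held 3.60, 4.21, 5.21, 4.78 and 3.81 and the RCA 3.43, 3.77, 3.65, 4.26 and 3.54. The ranges of the arteries overlapped, but within each animal the LCA was the higher, in 4 of 4 and 5 of 5. Ccl3 rose in the LCA at 48 h by 0.59 under atorvastatin (SE 0.19, adjusted p = 0.0154) and by 0.59 under vehicle (SE 0.17, adjusted p = 0.00559). At 2 weeks it rose by 0.77 under atorvastatin (SE 0.17, adjusted p = 0.000492), where LCA values of 4.21 to 4.92 lay above RCA values of 3.57 to 4.18, and by 0.50 under vehicle (adjusted p = 0.0224), where the arteries overlapped. Fits to the animals of 1 group alone gave adjusted p = 0.175 under atorvastatin and 0.101 under vehicle at 48 h (0.00998 to 0.175 and 0.00367 to 0.101 over 6 alternatives each). The 48 h call was lost without atorvastatin animal 6 (0.53, adjusted p = 0.0894) or 8 (0.44, adjusted p = 0.125) and without vehicle animal 3 (0.35, adjusted p = 0.116). The 2-week call under vehicle was lost without animal 2 or 3 (0.42 and 0.43, adjusted p = 0.0951 and 0.0968), and treating the arteries as unpaired ended it (adjusted p = 0.0928) and the 48 h call under atorvastatin (adjusted p = 0.0685).

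Ccl4 encodes MIP-1beta, a chemokine of macrophages and lymphocytes, and lay below the array median on all 78 arrays, between 3.17 and 4.52. Its mean differences ran from -0.20 to 0.22, and without the filter the smallest adjusted p among the 8 groups was 0.33, at 48 h under vehicle.

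Ccl5 encodes RANTES, a ligand of CCR1 made chiefly by T cells, NK cells, macrophages and platelets. In the LCA at 2 weeks it stood at 7.25, 7.42, 6.47, 6.01 and 6.90 under atorvastatin, against 4.55, 3.30, 4.59, 3.14 and 4.28 in the RCA. Under vehicle the LCA held 7.38, 7.51, 9.20, 6.73 and 7.51, against 3.32, 3.33, 3.40, 3.05 and 3.24 in the RCA. The arteries were fully separated under both treatments, and 3 of the 5 atorvastatin control arteries stood above every vehicle one. Ccl5 rose in the LCA at 2 weeks by 2.84 under atorvastatin (SE 0.27, 95% interval 2.28 to 3.39, adjusted p = 3.51e-10). It rose by 4.40 under vehicle (SE 0.27, 95% interval 3.85 to 4.95, adjusted p = 1.21e-14). Both calls held with each animal left out in turn. Up to 24 h the LCA means were 3.29 to 3.85 and the RCA means 3.25 to 3.47.

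At 48 h the Ccl5 values of vehicle animal 4 were 7.95 in the LCA and 8.50 in the RCA, while the other 4 vehicle animals held 3.83 to 4.51 and 3.03 to 3.41. The T cell gene Cd3e was also high in that animal, at 4.32 and 6.12, against 3.08 to 3.52 and 3.04 to 3.58 in the others, and the antigen presentation gene Cd74 was at 11.35 and 11.10. The Ccl5 difference at 48 h under vehicle was 0.70 (SE 0.27, adjusted p = 0.0436) and was 1.01 without animal 4 (adjusted p = 0.00475). It was not called without animal 1, 2, 3 or 5 (0.60, 0.53, 0.65 and 0.69, adjusted p = 0.154, 0.174, 0.119 and 0.101). Over 7 alternatives its adjusted p ran from 0.0291 to 0.322 and 2 of them called it, with 0.322 where the arteries were taken as unpaired. Under atorvastatin at 48 h the difference was 0.43 (adjusted p = 0.293).

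Some T cell and NK cell genes were also higher in the LCA at 2 weeks. Of 5 tested T cell markers, 2 were higher in the LCA under atorvastatin and 4 under vehicle, and of 3 tested NK cell markers 2 under each. Among all tested genes, 14.5% were higher in the LCA at 2 weeks under atorvastatin and 15.5% under vehicle. The mean over the T cell list spanned 4.18 to 5.08 in the LCA and 3.68 to 5.76 in the RCA under atorvastatin, and 4.56 to 6.43 in the LCA and 3.65 to 5.12 in the RCA under vehicle. Under atorvastatin the T cell list mean was lower in the LCA in animals 8 and 9 (-0.92 and -0.14), in which Ccl5 was higher there by 1.88 and 2.87. For the NK cell list it spanned 4.28 to 4.97 in the LCA and 3.35 to 3.80 in the RCA under atorvastatin, and 4.15 to 6.36 and 3.35 to 3.5 under vehicle. On this log2 scale no marker is at 0. The part of these cells in the Ccl5 result was not tested.

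Ccl6 encodes a myeloid chemokine of rodents that signals through CCR1. It was above the array median in all arteries at 12 h, where the means were 8.63 ± 0.85 in the LCA and 8.77 ± 1.08 in the RCA under atorvastatin, and 9.47 ± 0.51 and 8.34 ± 1.86 under vehicle (SD, n = 5 each). In the RCA it then stood lower with time. The RCA means at 24 h, 48 h and 2 weeks were 8.52, 5.99 and 5.70 under atorvastatin and 7.07, 6.49 and 5.40 under vehicle. This change over time in the control artery passed the F test under atorvastatin (adjusted p = 0.00852) and under vehicle (adjusted p = 0.0206). Ccl6 was 1 of 7 members called over time in the RCA under each treatment, against 5.88% of all tested genes under atorvastatin and 26.8% under vehicle. The vehicle call was lost without animal 2 or 4 at 12 h or animal 1 or 4 at 2 weeks (adjusted p = 0.0557, 0.0729, 0.0574 and 0.0541), and with the title code block (adjusted p = 0.0532).

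At 48 h Ccl6 held 9.54, 7.30, 10.34 and 9.11 in the LCA under atorvastatin, against 7.65, 5.92, 5.002 and 5.38 in the RCA. Under vehicle it held 8.81, 9.70, 9.97, 7.29 and 9.35 in the LCA, against 5.39, 7.58, 6.03, 6.22 and 7.23 in the RCA. LCA and RCA ranges overlapped under both treatments, since LCA values of 7.30 in atorvastatin animal 7 and 7.29 in vehicle animal 4 were below the highest RCA values. Within animals the LCA was higher in 4 of 4 and 5 of 5. Ccl6 was higher in the LCA than in the RCA by 3.08 under atorvastatin (SE 0.70, adjusted p = 0.00106) and by 2.53 under vehicle (SE 0.63, adjusted p = 0.00181). The 4 atorvastatin animals fitted alone missed the threshold (adjusted p = 0.0681, 0.000846 to 0.0681 over 7 alternatives). Mean LCA levels at 12 h, 24 h and 48 h were 8.63, 7.64 and 9.07 under atorvastatin and 9.47, 8.15 and 9.02 under vehicle. Mean RCA levels were 8.77, 8.52 and 5.99 under atorvastatin and 8.34, 7.07 and 6.49 under vehicle. At 2 weeks the LCA held 7.13 to 7.61 and the RCA 5.22 to 6.03 under atorvastatin, which did not overlap, with a difference of 1.59 (SE 0.63) that missed the threshold (adjusted p = 0.0532). Of 7 alternatives 4 called it, with estimates of 1.59 to 2.55 and adjusted p of 0.000434 to 0.0857, while it was called with none of the 5 animals left out. Under vehicle the LCA held 7.07 to 8.68 and the RCA 4.05 to 7.55, which overlapped, with a called difference of 2.30 (SE 0.63, adjusted p = 0.00529). The vehicle call was lost in 1 of 7 alternatives, a block for the leading number of the title code (1.46, adjusted p = 0.103).

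Ccr2 encodes the receptor for CCL2 and CCL7. At 48 h its LCA levels were 7.49, 5.05, 6.97 and 7.47 under atorvastatin, against 3.43, 3.25, 3.64 and 3.33 in the RCA. Under vehicle they were 6.88, 6.82, 8.35, 5.92 and 8.31 in the LCA, against 3.48, 3.77, 3.31, 5.05 and 3.84 in the RCA. Each LCA lay above each RCA, and the lowest LCA of each treatment belonged to atorvastatin animal 7 and vehicle animal 4. Ccr2 rose in the LCA at 48 h by 3.33 under atorvastatin (SE 0.56, adjusted p = 4.32e-05) and by 3.37 under vehicle (SE 0.50, adjusted p = 4.89e-06). At 2 weeks the LCA held 6.10 to 7.97 and the RCA 3.10 to 3.61 under atorvastatin, and the LCA 6.76 to 7.92 and the RCA 3.15 to 3.73 under vehicle. The rise at 2 weeks was 3.58 under atorvastatin (SE 0.50, adjusted p = 6.85e-07) and 3.68 under vehicle (SE 0.50, adjusted p = 4.71e-07), again with full separation of the arteries.

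At 24 h Ccr2 stood at 6.26 and 6.42 in the LCA of vehicle animals 1 and 4, against 3.60 to 4.56 in the other 3, and at 5.53 in the LCA of atorvastatin animal 7, against 3.41 to 3.90 in the other 4. The mean difference was 0.40 under atorvastatin (SE 0.50, adjusted p = 0.665) and 1.26 under vehicle (SE 0.50, adjusted p = 0.0886), and without vehicle animal 3 the vehicle difference was called (1.74, adjusted p = 0.0393). The 3 other probe sets of Ccr2 correlated with the used one at 0.876 to 0.965 over the 78 arrays and were called at 48 h and 2 weeks under both treatments, with differences of 1.54 to 3.80.

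Ccr1 encodes the receptor shared by CCL3, CCL5 and CCL6. At 48 h its LCA levels were 6.40, 2.96, 4.53 and 4.59 under atorvastatin, against 2.66, 2.76, 2.76 and 2.71 in the RCA. Under vehicle they were 5.03, 4.79, 6.58, 2.78 and 5.95 in the LCA, against 2.60, 2.94, 2.74, 2.94 and 2.79 in the RCA. The arteries overlapped only through vehicle animal 4, whose LCA was at the level of the control arteries. Ccr1 rose in the LCA at 48 h by 1.90 under atorvastatin (SE 0.36, adjusted p = 0.000189) and by 2.22 under vehicle (SE 0.33, adjusted p = 3.97e-06), and by 2.82 under vehicle without animal 4 (adjusted p = 4.92e-09). The arrays that let Ccr1 into the tests were LCA arrays of this same time, so these calls are a description. Under vehicle all 7 alternatives called the difference, the fit without the filter among them. The 4 atorvastatin animals fitted alone missed the threshold (adjusted p = 0.0983, 5.35e-05 to 0.0983 over 7 alternatives). At 2 weeks the differences were 0.59 under atorvastatin (adjusted p = 0.184) and 0.79 under vehicle (adjusted p = 0.0664), although the LCA was higher in 5 of 5 animals of each treatment. The LCA held 3.02 to 3.78 and the RCA 2.65 to 2.98 under atorvastatin. Under vehicle the LCA held 3.08 to 4.07 and the RCA 2.60 to 2.90. The arteries were thus fully separated under both, with all values below the array median. The other Ccr1 probe set, which correlated with the used one at 0.893 over the arrays, was called at 2 weeks under atorvastatin (1.22, adjusted p = 0.0242) and under vehicle (1.37, adjusted p = 0.0125). Over 7 alternatives the adjusted p ran from 0.0103 to 0.224 under atorvastatin and from 0.0125 to 0.0883 under vehicle.

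The change from one time to the next was tested on the differences themselves. Between 12 h and 24 h, 0 of 7 members changed under atorvastatin and 0 of 7 under vehicle, where 0% of all tested genes did under either treatment, and 0 members passed at an unadjusted p under 0.05, where 6.66% of all tested genes did under atorvastatin and 10.5% under vehicle. Between 24 h and 48 h, 4 of 7 members gained under atorvastatin, where 24.1% of all genes changed in either direction, and 2 of 7 under vehicle, where 27.8% did. These were Ccl6 (3.96, adjusted p = 0.00309), Ccr2 (2.94, adjusted p = 0.00528), Ccl2 (2.29, adjusted p = 0.00718) and Ccr1 (1.68, adjusted p = 0.0122) under atorvastatin, and Ccr1 (1.97, adjusted p = 0.00233) and Ccr2 (2.11, adjusted p = 0.0253) under vehicle. The change of Ccl2 was not called without atorvastatin animal 8 at 48 h (1.39, adjusted p = 0.0696), nor that of Ccr1 without atorvastatin animal 6 at 48 h (1.06, adjusted p = 0.119). That of Ccr2 under vehicle was not called without animal 2, 3 or 5 at 24 h (2.02, 1.62 and 1.88) or animal 1, 3 or 5 at 48 h (2.10, 1.69 and 1.83), with adjusted p between 0.0504 and 0.103. A block for the title code number ended the Ccr1 call under both treatments (1.40 under atorvastatin and 1.37 under vehicle, adjusted p = 0.0651 and 0.0716) and the Ccr2 call under vehicle (adjusted p = 0.0976). The arteries taken singly changed as follows from 24 h to 48 h under atorvastatin. Ccl6 changed by 1.43 in the LCA (adjusted p = 0.113) and by -2.53 in the RCA (adjusted p = 0.286). The LCA and RCA changes were 2.73 and -0.20 for Ccr2, 1.79 and -0.49 for Ccl2, and 1.68 and 0.001 for Ccr1. Of these, the LCA changes of Ccr2, Ccl2 and Ccr1 were called.

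Between 48 h and 2 weeks, 2 of 7 members changed under atorvastatin, against 8.32% of all genes, and 1 of 7 under vehicle, against 5.76%. Ccl5 gained 2.40 under atorvastatin (SE 0.41, adjusted p = 0.000164) and 3.70 under vehicle (SE 0.39, adjusted p = 4.88e-08). The atorvastatin call was lost in 1 of 3 alternatives, without the pairing of arteries (adjusted p = 0.0514, range 0.000134 to 0.0514). The Ccl2 difference changed by -2.36 under atorvastatin (SE 0.61, adjusted p = 0.0127), from 2.44 at 48 h to 0.08 at 2 weeks. Without animal 8 at 48 h the change was -1.46 and was not called (adjusted p = 0.104), nor was it with the title code block (-1.76, adjusted p = 0.121). The Ccr1 changes of -1.31 under atorvastatin (adjusted p = 0.0889) and -1.43 under vehicle (adjusted p = 0.0567) missed the threshold. They were called without atorvastatin animal 7 at 48 h (-1.88, adjusted p = 0.00786) and without vehicle animal 4 at 48 h (-2.03, adjusted p = 0.000843). Ccr2 changed by 0.25 under atorvastatin (95% interval -1.28 to 1.77) and 0.32 under vehicle (95% interval -1.13 to 1.76), neither called. With all 4 times in an F test, 5 of 7 members varied under atorvastatin, against 33.5% of all genes, and 3 of 7 under vehicle, against 32.9%. They were Ccl5, Ccr1 and Ccr2 under both treatments, with Ccl2 and Ccl6 under atorvastatin as well. Under atorvastatin the Ccl2 call was lost without animal 8 at 48 h (adjusted p = 0.125) and the Ccr1 call without animal 6 or 9 at 48 h (adjusted p = 0.235 and 0.0577). The title code block ended the Ccr1 call under both (adjusted p = 0.17 under atorvastatin and 0.11 under vehicle). In the fit without the filter, Ccl4 and Ccl7 passed in none of these changes of the difference, with a smallest adjusted p of 0.123 for Ccl7 between 48 h and 2 weeks under atorvastatin (-1.50).

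Most tested myeloid markers were higher in the LCA at 48 h, when Ccr1 and Ccr2 were, while the lists differed from each other at 2 weeks. At 48 h, 4 of 4 tested neutrophil markers were higher in the LCA under each treatment, and at 2 weeks their median difference was -0.02 under atorvastatin and 0.94 under vehicle, where 1 of 4 was called. Of 11 macrophage markers, 10 were higher at 48 h under atorvastatin and 8 under vehicle, and 11 of 11 at 2 weeks under each. Among all tested genes, 16.6% were higher in the LCA at 48 h under atorvastatin and 20.8% under vehicle. The shares at 2 weeks were 14.5% and 15.5%. The mean over the neutrophil list at 48 h spanned 4.52 to 7.40 in the LCA and 3.40 to 3.67 in the RCA under atorvastatin, and 3.30 to 7.67 in the LCA and 3.31 to 4.07 in the RCA under vehicle. The lowest LCA values, 4.52 and 3.30, belonged to atorvastatin animal 7 and vehicle animal 4, the animals with the lowest Ccr1. This match was not particular to the neutrophil list, since the same animals held the lowest LCA monocyte list means at 48 h (7.12 and 7.21). Atorvastatin animal 7 was also lowest in the macrophage (5.54) and pan-leukocyte (6.39) lists. Vehicle animal 4 was lowest in neither of those (7.09 and 8.30). The macrophage list at 2 weeks spanned 7.85 to 8.64 in the LCA and 3.94 to 4.84 in the RCA under atorvastatin, and 8.19 to 8.78 in the LCA and 3.41 to 5.71 in the RCA under vehicle. At 24 h it spanned 4.58 to 6.97 in the LCA and 4.71 to 6.05 in the RCA under atorvastatin, and 4.32 to 6.60 and 4.72 to 5.27 under vehicle. Of 4 tested monocyte markers, 2 were higher and 1 lower at 48 h under atorvastatin, and 3 higher and 1 lower under vehicle. The monocyte list mean at 48 h spanned 7.12 to 8.80 in the LCA and 6.18 to 6.91 in the RCA under atorvastatin, and 7.21 to 9.21 and 6.40 to 6.91 under vehicle. The lower one was Ly6c1, a gene that endothelium also expresses. At 2 weeks 2 monocyte markers were higher and 1 lower under each treatment. The LCA minus RCA of the monocyte list mean then ran from -0.52 to 0.88 under atorvastatin and from -0.05 to 1.48 under vehicle. The Ccr2 differences at that time were 3.58 and 3.68. All 3 tested smooth muscle markers were higher in the LCA at 2 weeks under each treatment, with medians of 3.28 and 2.40. Vehicle animal 2 was an exception, with a smooth muscle list mean of 6.58 in the LCA and 7.12 in the RCA. The other vehicle animals differed by 2.47 to 3.92. The part of these cells in the results of the members was not tested.

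**Figure D3:**
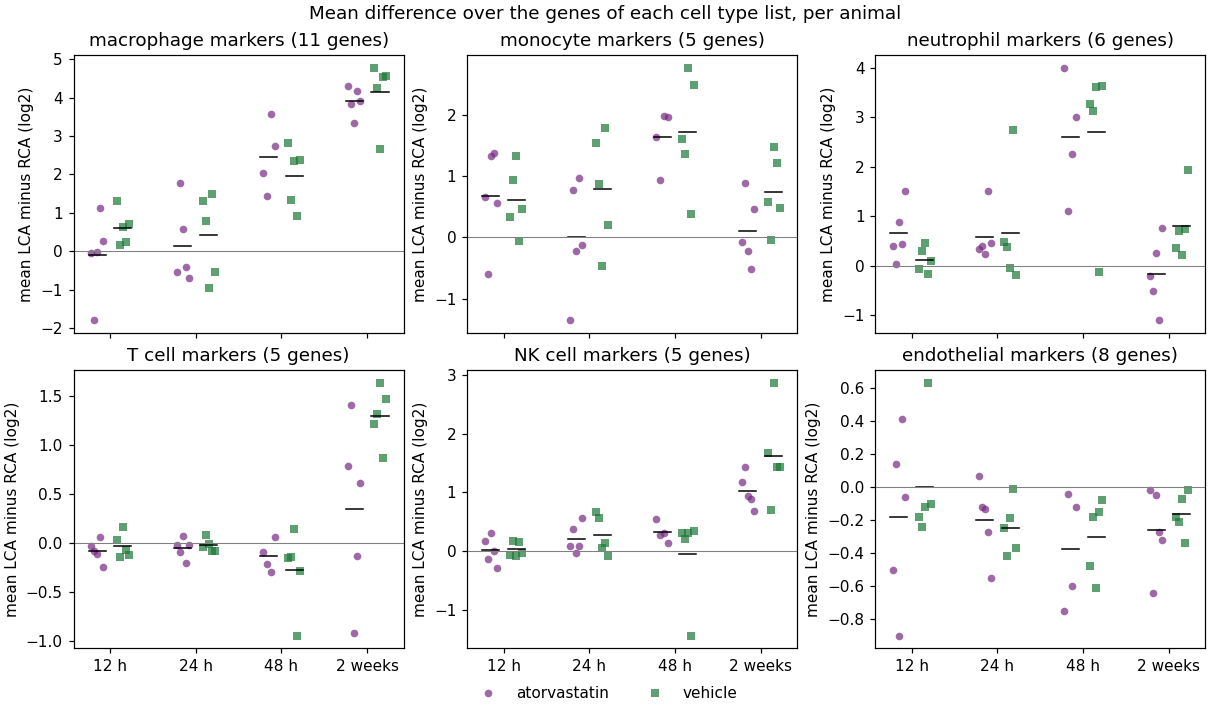
Mean LCA minus RCA (log2, vertical axis) over the genes of 6 cell type lists by time after ligation, atorvastatin left of vehicle. Points are animals and short lines are group means. Neutrophil differences reach 4.0 at 48 h and lie between -1.10 and 1.94 at 2 weeks, while macrophage differences reach 4.78 and T and NK cell differences 1.63 and 2.86 at 2 weeks.

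RNA integrity, read as the 3′ minus 5′ log2 signal of the Gapdh control probe sets, differed between arteries by less than 0.4 at 48 h and 2 weeks, the times at which members were called, and by more at some earlier times. At 48 h the LCA averaged 3.97 ± 0.24 and the RCA 3.81 ± 0.48 under atorvastatin (SD, n = 4 each), and 3.95 ± 0.42 and 4.33 ± 0.20 under vehicle (SD, n = 5 each). At 2 weeks it was 3.98 ± 0.34 and 3.96 ± 0.33 under atorvastatin and 4.0 ± 0.46 and 3.80 ± 0.28 under vehicle (SD, n = 5 each). At 12 h the LCA averaged 4.87 ± 0.81 and the RCA 4.20 ± 0.21 under atorvastatin, and the LCA 4.82 ± 0.30 and the RCA 4.74 ± 0.31 under vehicle. At 24 h the LCA averaged 4.56 ± 0.29 and the RCA 4.10 ± 0.20 under atorvastatin, and the LCA 4.97 ± 0.47 and the RCA 4.04 ± 0.24 under vehicle (SD, n = 5 each). In the vehicle RCA, where Ccl6 varied over time, this measure averaged 4.74 at 12 h and 3.80 at 2 weeks, and its part in the changes over time was not tested.

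Atorvastatin and vehicle were compared in each artery and on the LCA minus RCA difference. No tested member differed at any time. In the LCA the count was 0 of 7 at 12 h, 24 h, 48 h and 2 weeks, where 0% of all tested genes were called at each time. In the RCA it was 0 of 7 at 12 h (0.0441% of all tested genes), 24 h (0%), 48 h (0%) and 2 weeks (0.00882%). For the difference it was 0 of 7 at 12 h (0.00882%), 24 h (0%), 48 h (0%) and 2 weeks (0.0176%). At an unadjusted p under 0.05, 2 members passed in the LCA at 48 h, Ccl2 and Ccl5, where 4.2% of all tested genes did, and 0 at the other times (2.72% to 5.09%). In the RCA 0 members passed at any time (3.98% to 11.2%). The Ccl5 contrast in the LCA at 48 h was -1.18 (adjusted p = 0.971) and was -0.42 without vehicle animal 4 (adjusted p = 0.716, within 0.395 to 1 with any 1 animal left out). For the difference, 0 members passed at 12 h (3.67% of all tested genes) and 1 member at each of 24 h (Ccl6, 2.61%), 48 h (Ccl2, 5.12%) and 2 weeks (Ccl5, 4.36%). In the fit without the filter Ccl7 had a contrast of 1.085 in the LCA at 48 h (unadjusted p = 0.0471, adjusted p = 0.96), and Ccl4 and Ccl7 were called in no comparison of the treatments.

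Ccl5 had the smallest p of these comparisons. Its difference at 2 weeks was 1.88 to 4.12 in atorvastatin animals and 3.69 to 5.80 in vehicle animals, so the groups overlapped. The atorvastatin minus vehicle contrast was -1.56 (SE 0.39, 95% interval -2.34 to -0.78, unadjusted p = 0.000266, adjusted p = 0.214). With an animal left out the contrast ran from -1.88 to -1.21 and its adjusted p from 0.0569 to 0.703. At that time the LCA contrast was -0.86 (95% interval -1.84 to 0.13) and the RCA contrast 0.71 (95% interval -0.42 to 1.83), both with an adjusted p of 1. At 48 h the Ccl2 level in the LCA was 4.43 to 8.97 under atorvastatin and 4.22 to 5.02 under vehicle. Its contrast was 1.55 (SE 0.56, 95% interval 0.41 to 2.69, adjusted p = 0.971), and with an animal left out it ran from 0.64 to 2.15. For Ccr2 the contrast on the difference was -0.04 at 48 h (95% interval -1.57 to 1.49) and -0.11 at 2 weeks (95% interval -1.55 to 1.33). These intervals leave room for changes of more than 1 on the log2 scale in either direction.

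Among the rest of the family, 21 of 26 listed ligands, receptors and atypical receptors had a probe set and 13 were tested. At 48 h, 2 were higher and 2 lower in the LCA under atorvastatin, where 16.6% of all tested genes were higher and 15.2% lower. Under vehicle 3 were higher and 3 lower, against 20.8% and 15.4% of all tested genes. At 2 weeks the counts were 2 and 1 under atorvastatin, against 14.5% and 15.4%. They were 4 and 1 under vehicle, against 15.5% and 12.3%. The median difference at 48 h was 0.06 under atorvastatin and -0.16 under vehicle, and at 2 weeks 0.18 and -0.24. Ccl9, a mouse CCR1 ligand and the neighbour of Ccl6, rose at 48 h (3.33 under atorvastatin and 2.83 under vehicle, adjusted p = 0.0007 and 0.000888) and at 2 weeks (3.02 and 2.94, adjusted p = 0.000407 and 0.000655). Ccl12, a mouse CCR2 ligand, rose at 2 weeks (1.60 under atorvastatin and 1.81 under vehicle) and at 48 h under vehicle (0.99, adjusted p = 0.0466). Ccl17 and Ccl22 encode ligands of CCR4. Ccl17 rose at 48 h (0.65 under atorvastatin and 0.55 under vehicle) and at 2 weeks under vehicle (0.57). Ccl22 was at 0.29 at 2 weeks under atorvastatin (adjusted p = 0.408) and rose under vehicle (1.63, adjusted p = 1.88e-06). The atorvastatin minus vehicle contrast of that difference was -1.34 (SE 0.34, unadjusted p = 0.000358) and did not pass (adjusted p = 0.225).

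Of the genes that fell, Ccrl2, which encodes a receptor that binds chemerin without signalling, fell at 48 h (-0.84 under atorvastatin and -1.20 under vehicle) and at 2 weeks (-1.58 and -0.98). Ackr4, a scavenger of CCR7 ligands, fell at 48 h under atorvastatin (-1.90, adjusted p = 0.000251). Ccl27a fell at 48 h under vehicle (-0.86, adjusted p = 0.048), and Ccl28 fell under vehicle at 24 h (-0.41) and 48 h (-0.43). Of the neighbours of Ccl2, Ccl11, an eotaxin gene, was at -0.05 under atorvastatin and -1.07 under vehicle at 48 h, neither called. Ccr9 and Ccr10, the other receptors tested, were called in no group.

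**Figure D4:**
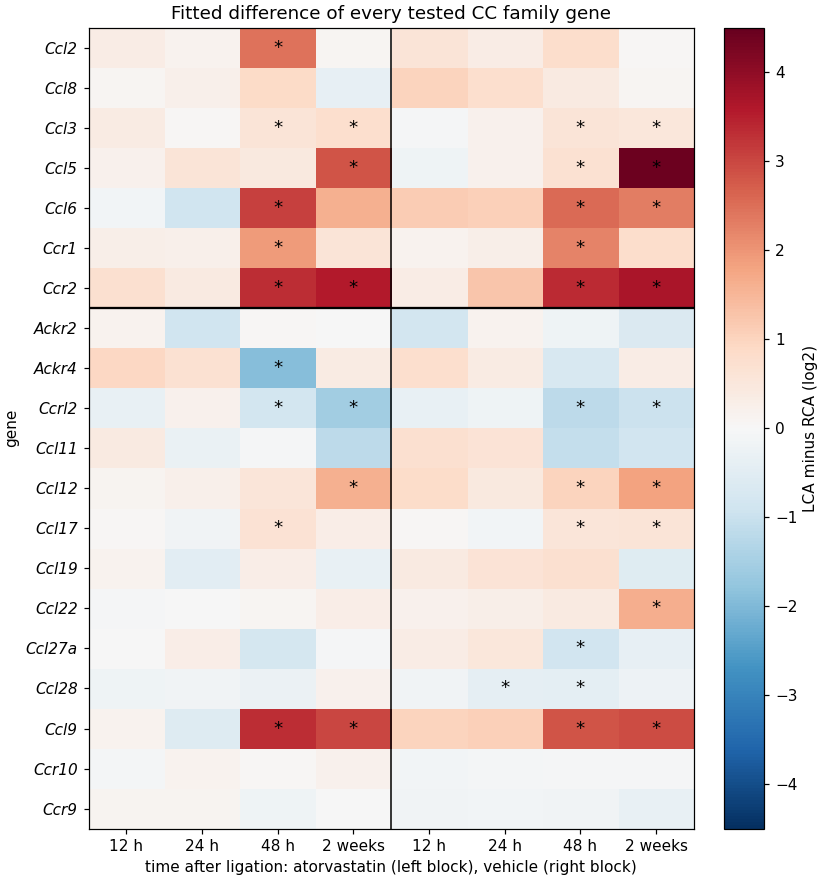
Fitted LCA minus RCA difference (colour, log2) of the 7 tested members (above the line) and the 13 other tested family genes (below it) at each time, atorvastatin in the left block and vehicle in the right. Stars mark an adjusted p under 0.05. Stars in the members stand at 48 h and 2 weeks only, and Ccl9 is the other gene starred in all 4 of those columns with a rise.

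Genes that carry chemokine receptor signals were counted from a list of 18, of which 14 were tested. At 48 h, 8 were higher and 2 lower in the LCA under atorvastatin, where 16.6% of all tested genes were higher and 15.2% lower. Under vehicle 8 were higher and 0 lower, against 20.8% and 15.4% of all tested genes. At 2 weeks 9 were higher and 1 lower under each. The shares of all tested genes were then 14.5% and 15.4% under atorvastatin and 15.5% and 12.3% under vehicle. The median difference at 48 h was 1.03 under atorvastatin and 0.93 under vehicle, and at 2 weeks 1.61 and 1.54. Under vehicle Dock2, a Rac activator of leukocytes, rose by 2.86 at 48 h and 3.49 at 2 weeks, and the Src-family kinase gene Fgr by 3.67 and 3.35. Gnai2, the G protein subunit that couples these receptors, was at -0.24 at 48 h and -0.05 at 2 weeks under vehicle, neither called, and was lower at 48 h under atorvastatin (-0.60) and at 24 h under both (-0.78 under atorvastatin and -0.81 under vehicle). Rgs1, a brake on chemokine receptor signalling, was at 0.13 at 48 h under vehicle and rose by 3.30 at 2 weeks.

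Of 17 listed regulators and inducers of CC ligands, 11 were tested. At 48 h, 5 were higher and 1 lower in the LCA under atorvastatin, where 16.6% of all tested genes were higher and 15.2% lower. Under vehicle 3 were higher and 1 lower, against 20.8% and 15.4% of all tested genes. At 2 weeks 4 were higher under each, against 14.5% under atorvastatin and 15.5% under vehicle. The median difference at 48 h was 0.49 under atorvastatin and 0.31 under vehicle. Tnfaip3, an inhibitor of NF-kB that NF-kB induces, was higher in the LCA at 12 h (1.41 under atorvastatin and 1.28 under vehicle, adjusted p = 0.000205 and 0.000694), when no member was called, and at all later times except 48 h under vehicle (0.53, adjusted p = 0.0613). Il1b, which encodes the cytokine interleukin-1beta, was called from 48 h, at 4.72 under atorvastatin (adjusted p = 1.08e-05) and 5.21 under vehicle (adjusted p = 3.09e-07). In vehicle animal 4 the Il1b difference at 48 h was 0.56, against 5.72 to 7.12 in the other 4 vehicle animals. Irf8, a transcription factor of myeloid cells, rose by 1.16 under atorvastatin and 1.36 under vehicle at 48 h, and by 2.10 and 2.63 at 2 weeks. Csf1, the macrophage growth factor gene, fell slightly at 48 h (-0.45 under atorvastatin and -0.36 under vehicle).

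For each tested member, the genes with the most similar pattern over the 16 group means were listed by Pearson correlation, as a description of means that share the same arrays. Ccr2 was closest to Plek (0.991), Ifi209 (0.99) and Rassf4 (0.988), and Ccr1 to Il1rn (0.987), Pira1 (0.985) and Gpr35 (0.981). Ccl5 was closest to Klra9 (0.983), Rasal3 (0.981) and Cd72 (0.974), and Ccl6 to Ccl9 (0.957), Sucla2 (0.93) and Ado (0.921). Ccl3 was closest to Stap1 (0.958), 9330175E14Rik (0.954) and Acta2 (0.951). Ccl2 was closest to Car4 (0.927), Twnk (0.914) and Tnfaip6 (0.906), and Ccl8 to Steap4 (0.918), Rdh11 (0.908) and F13a1 (0.894).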

How the data were processed

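RNA of 78 arteries, LCA and RCA of 39 mice, was measured on Affymetrix arrays. The log2 values used are those the authors deposited. The submitters' processing notes name RMA; neither its software nor its chip file is named in the sources used here. RMA compresses low signals and would hide a shift shared by most genes. Arrays have no count depth, and their number limits precision.

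Of 45118 probe sets, 81 were controls, the platform annotation gave 28898 a single symbol, 551 more than one and 15588 no symbol, and only the first kind was named. A gene was tested if 4 or more arrays had it over their own median (11344 of 17097). Within-animal LCA minus RCA differences were fitted with limma 3.58.1 (R 4.3.3) over 8 groups with shared variance, LCA and RCA values likewise, with Benjamini-Hochberg adjustment and a threshold of 0.05.

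Both arteries of a number come from the same mouse per the labels, so the main fit is paired; the median correlation of their deviations from group means was 0.088 (-0.34 to 0.513, above 0.1 in 19 of 39). Groups follow the labels, and replicates are separate mice. The labels speak of 4 batches of extraction and profiling without assigning samples, so batch cannot be told apart from the groups. The leading number of the title code served as an alternative block, though what it stands for is not known here. Its highest value occurs only in animals taken at 48 h, so this block overlaps in part with time. Other alternatives were no filter, a filter at the 75th percentile, repeated quantile normalization, other probe sets, other variance models, unpaired arteries and each animal left out. The fit was tested on simulated data. All 9 members are given for LCA against RCA, and the tested 7 counted in the other comparisons, with values for those called or near a call, other family genes where called under vehicle or as a list count, and 3 similar genes per member; further genes were chosen after their values were seen. Members and lists were chosen with earlier results of these data known.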

Additional observations from a re-analysis of the deposited data

Results flagged for a closer look

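Of 144 groups (9 members, 2 arteries, 8 animal groups), 11 held an animal far from the others by Dixon's criterion, which chance alone gives in about 5% of groups. Vehicle animal 4 at 48 h had Ccl5 at 7.95 in the LCA, against 3.83 to 4.51 in the other 4, and at 8.50 in the RCA, against 3.03 to 3.41. Ccl5 was low in the RCA of atorvastatin animal 6 at 12 h (3.03, against 3.27 to 3.35). Ccl3 was high in the LCA of vehicle animal 4 at 24 h (4.63, against 3.57 to 3.72) and in the RCA of vehicle animal 4 at 2 weeks (4.65, against 3.62 to 3.83). Ccr2 was high in the LCA of atorvastatin animal 7 at 24 h (5.53, against 3.41 to 3.90). Ccl8 was high in the RCA of atorvastatin animal 10 at 24 h (7.12, against 4.66 to 5.15) and in the LCA of vehicle animal 3 at 2 weeks (5.05, against 4.21 to 4.40). Ccl7 was high in the RCA of vehicle animal 3 at 24 h (3.95, against 2.59 to 2.88) and of vehicle animal 2 at 48 h (3.01, against 2.61 to 2.72), and Ccl4 in the LCA of vehicle animal 2 at 12 h (4.47, against 3.31 to 3.53). Animals of the same number at different times are different mice.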

How the results depend on the processing

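Over alternatives other than leaving out an animal, 420 member values kept direction and side of the threshold, 22 lost their call, 10 gained it and 9 changed sign, and with an animal left out the counts were 564, 26, 3 and 18. Leaving out animals for Ccl7, in the fit without the filter, was added after seeing the data. Counts of members called moved by over 1.5 times as follows. With the filter at the 75th percentile, which tests fewer genes, Ccl2, Ccl3 and Ccr1 were not tested at all. Of the members still tested (Ccl5, Ccl6, Ccl8 and Ccr2), 2 were called at 48 h under atorvastatin and 3 under vehicle, against 5 in each. Fitting animals of a group alone called 1 at 48 h (against 5) and 5 at 2 weeks (against 3) under atorvastatin. With the title code number as a block, 1 member changed between 48 h and 2 weeks under atorvastatin (against 2), 0 between 24 h and 48 h under vehicle (against 2) and 0 over time in the vehicle RCA (against 1). Without the replicate block, 1 member changed between 48 h and 2 weeks under atorvastatin, where Ccl5 missed the threshold (2.40, adjusted p = 0.0514). With an animal left out, the counts ran from 3 to 5 at 48 h, 0 to 1 at 24 h, 1 to 3 for the change from 24 h to 48 h, 1 to 2 for that from 48 h to 2 weeks and 0 to 1 over time in the RCA, all under vehicle, and from 1 to 3 for the change from 48 h to 2 weeks under atorvastatin. Values that changed sign were uncalled on both sides. With the title code block these were Ccl2 (-0.15) and Ccl8 (-0.27) and Ccr2 (-0.19) at 24 h, Ccl6 (0.13) at 12 h and Ccl8 (0.025) at 2 weeks under atorvastatin, and Ccl2 (-0.81) and Ccl8 (-1.18) at 2 weeks under vehicle. Other probe sets gave Ccr2 at -0.121 and -0.065 at 12 h under vehicle. With an animal left out under atorvastatin, Ccl2 ran from -0.042 to 0.587 at 12 h, -0.032 to 0.509 at 24 h and -0.027 to 0.191 at 2 weeks, Ccl6 from -0.31 to 0.28 at 12 h, Ccl8 from -0.36 to 0.70 at 12 h, -0.68 to 0.78 at 24 h and -0.087 to 1.31 at 48 h, Ccl3 from -0.042 to 0.129 at 24 h and Ccr2 from -0.046 to 0.543 at 24 h. Under vehicle, Ccl3 ran from -0.129 to 0.025 at 12 h and -0.026 to 0.292 at 24 h, Ccl2 from -0.066 to 0.762 at 24 h and -0.074 to 0.148 at 2 weeks, and Ccl8 from -0.026 to 1.246 at 24 h and -0.051 to 0.194 at 2 weeks. The cause of these shifts was not tested. Ccl4 and Ccl7 in both arteries, and Ccl2, Ccl3, Ccl5, Ccr1 and Ccr2 in most RCA arrays, lie below the array median, where signals are compressed.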
